A study of Homo sapiens with 12 samples.

Results

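S100 genes encode small calcium-binding proteins that mostly work as dimers: calcium entering their EF-hand loops exposes a surface that grips partner proteins such as annexins, myosin and p53. Some family members also leave the cell and act as ligands of receptors such as RAGE (the AGER product). Most of the genes lie side by side on the long arm of chromosome 1, and several are known for changed expression in breast cancer. The 9 genes described here, S100P, S100A2, S100A3, S100A4, S100A6, S100A10, S100A11, S100A13 and S100A16, were chosen by symbol from the 23375 genes listed in any of 4 comparison tables, and all 9 were in each of the 4. The set was picked from these data, since S100P stood among the largest falls after knockdown, so its values are given without a test.

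The cells were SUM159, an established triple-negative breast cancer line derived from a primary tumour of the mammary gland. They carried either a hairpin RNA against the zinc finger transcription factor E4F1 (shE4F1) or a control hairpin (shCTRL), and each was treated with 140 nM gemcitabine, a deoxycytidine analogue that stalls DNA replication, for 24 h or left untreated. This gives 4 groups of 3 RNA-seq libraries: shE4F1 with gemcitabine, shE4F1 untreated, shCTRL with gemcitabine and shCTRL untreated. All groups grew in the same serum-containing medium with hydrocortisone and insulin. How many hairpin sequences were used is not given in the sources used here, nor is the culture that each library came from. Effects of the hairpin other than on E4F1 cannot be told apart from those of E4F1 loss, and p-values then rest on a spread between libraries that may be technical. In bulk RNA, fewer cells of a type and less RNA per cell cannot be told apart either.

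The hairpin lowered its target. The authors' deposited tables give E4F1 a log2 fold change of -0.91 ± 0.16 (SE; adjusted p = 1.47e-07, DESeq2) for shE4F1 over shCTRL under gemcitabine and of -0.99 ± 0.26 (adjusted p = 0.000778) untreated. Mean normalized counts of the mesenchymal markers VIM and FN1 were between 53240 and 70720 and between 70040 and 175896 over the tables, against 4.95 to 13.1 for the oestrogen receptor gene ESR1 and 5.21 to 9.23 for E-cadherin (CDH1). Other luminal markers were present, with KRT8 between 2558 and 2748, KRT18 between 2330 and 2572, GATA3 between 402 and 588 and FOXA1 between 45.5 and 89.6. The keratinocyte marker KRT10 was between 922 and 1356. The basal markers TP63 and EGFR reached at least 1324 and 7306, and KRT5 412, while KRT17 was between 10.8 and 33.7 and KRT14 between 2.54 and 2.86. Of the listed markers, PGR, EPCAM, THY1, CD68, CD3E, KRT1, LOR, FLG and IVL were not analysed here. Values per library were not used, because the columns of the count table match no label. Each result is therefore a difference between groups with its SE, and levels are given per group.

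S100P lies on chromosome 4 (chr4:6693069-6697170, + strand), and the other 8 members lie on the minus strand of chromosome 1, S100A10 and S100A11 between chr1:151982915 and chr1:152047907 and the other 6 between chr1:153534599 and chr1:153631360 (GENCODE 29 annotation of GRCh38). Promoters (250 bases before to 50 after an annotated start) are held by RefSeq for all 9 members, 13 in all, on GRCh38.p14. The 3 printed here belong to the member with the largest difference, S100P, and to S100A3 and S100A11, which moved in opposite directions in the comparisons below. They cover chr4:6693628-6693927 (+ strand) for S100P, chr1:153549209-153549508 (- strand) for S100A3 and chr1:152036955-152037254 (- strand) for S100A11. Capitals mark TATAAA and the reverse complement of TGACGT in S100P, TGANTCA and GGGCGG in S100A3, and GGGCGG in S100A11.
S100P: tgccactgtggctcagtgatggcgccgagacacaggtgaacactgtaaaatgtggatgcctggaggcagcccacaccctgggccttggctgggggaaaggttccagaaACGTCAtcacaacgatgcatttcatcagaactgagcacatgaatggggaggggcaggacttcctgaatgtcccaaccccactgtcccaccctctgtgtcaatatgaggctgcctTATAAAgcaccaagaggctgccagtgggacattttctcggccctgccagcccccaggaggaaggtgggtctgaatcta
S100A3: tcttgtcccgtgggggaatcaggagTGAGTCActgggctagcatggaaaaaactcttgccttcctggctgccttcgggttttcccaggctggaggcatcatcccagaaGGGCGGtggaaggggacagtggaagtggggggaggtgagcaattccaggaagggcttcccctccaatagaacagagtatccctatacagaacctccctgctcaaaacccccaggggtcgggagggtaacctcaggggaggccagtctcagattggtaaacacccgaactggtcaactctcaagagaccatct
S100A11: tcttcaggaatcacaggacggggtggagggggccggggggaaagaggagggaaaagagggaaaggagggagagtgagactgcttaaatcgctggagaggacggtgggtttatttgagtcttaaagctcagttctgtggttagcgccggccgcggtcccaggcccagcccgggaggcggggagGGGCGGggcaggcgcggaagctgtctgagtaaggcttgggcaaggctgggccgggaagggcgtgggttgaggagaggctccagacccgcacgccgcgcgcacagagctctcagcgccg

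The S100P window holds a TATA box (TATAAA) from base -28 to base -23 and the TGACGT core of a cAMP response element from base -142 to base -137, counted from the start. TATAAA is in 11.6% and TGACGT in 7.97% of 34796 RefSeq promoters of the same length, searched on both strands, and S100P is the one member of the 9 with a TGACGT in a promoter. TATAAA was also found in promoters of S100A4 and S100A13. The AP-1 motif TGANTCA, in 7.73% of all promoters, was found for S100A2 and S100A3. The GC box GGGCGG, in 44.9% of all promoters, was found for 6 members, among them S100A3 and S100A11, and no other motif was searched. Counted per promoter, as the shares are, TATAAA was in 3, TGANTCA in 2, TGACGT in 1 and GGGCGG in 6 of the 13 member promoters. None of the letters searched overlap in the printed windows, and a match describes the letters alone. GC content was 56% in the S100P window and 65.3% in that of S100A11, against a median of 58.7% over all promoters.

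The knockdown moved the members in different directions: S100P, S100A3 and S100A16 were lower in shE4F1 than in shCTRL cells, and S100A11, S100A2 and S100A6 were higher. Those other than S100P differed by less than 2-fold, and S100A3 and S100A6 passed the test under gemcitabine alone. In the authors' deposited table of shE4F1 over shCTRL under gemcitabine, 5 of the 8 members other than S100P passed an adjusted p of 0.05, 3 of them higher (S100A2, S100A6, S100A11) and 2 lower (S100A3, S100A16). Of all 22433 genes tested there 41% passed, and of those with a mean normalized count of 50 or more 59.3%. In the deposited table of the same comparison untreated, 3 of 8 passed, with S100A2 and S100A11 higher and S100A16 lower. The share over all 19472 genes tested was 36.7%, and 48.7% at a mean of 50 or more. Both counts of members are near the background share. The median log2 fold change of the 9 members was 0.20 under gemcitabine and 0.35 untreated, against 0.00 over all genes in either.

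With gemcitabine, S100A3 was higher and S100A11 lower in shCTRL cells. These 2 of the 8 members other than S100P were called in the authors' deposited table, where 28% of 20002 genes were called, or 36% at a mean of 50 or more, so that the count is again near the background. In shE4F1 cells the gemcitabine effect was taken as the difference of 2 deposited tables. Of 8 members 0 passed the normal test with Benjamini-Hochberg adjustment, and 0 had an unadjusted p under 0.05. Of 21085 genes 1.11% passed, or 1.71% at a mean of 50 or more. The SE of this difference counts the shCTRL untreated libraries, which both tables share, 2 times and is too large. With their variance subtracted, 3 of 8 members passed (S100A3 higher, S100A2 and S100A10 lower), where 14.3% of genes passed. The share at a mean of 50 or more was not computed for this SE, so the count has no background of similar level. No library was left out: the variances of the 2 knockdown tables were summed, less that of gemcitabine in shCTRL cells. This holds only if the variance of each table splits into parts of its 2 groups, which was not tested. The result was not positive for 8 of 20477 genes. The interaction (knockdown effect with gemcitabine less the one without) was passed by 0 of 8 members and by 5.43% of 20926 genes. At a mean of 50 or more 7.68% of genes passed it. The smallest member p was that of S100A2, 0.0498 unadjusted and 0.301 adjusted, and it was the one member under 0.05 unadjusted. In the deposited table of shE4F1 with gemcitabine over shCTRL untreated, 1 of 8 members passed (S100A16 lower) where 32.2% of 19724 genes did. In it 42.2% of genes passed at a mean of 50 or more. That table shares its shCTRL untreated libraries with the untreated knockdown and with the gemcitabine comparison in shCTRL cells.

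**Figure D1:**
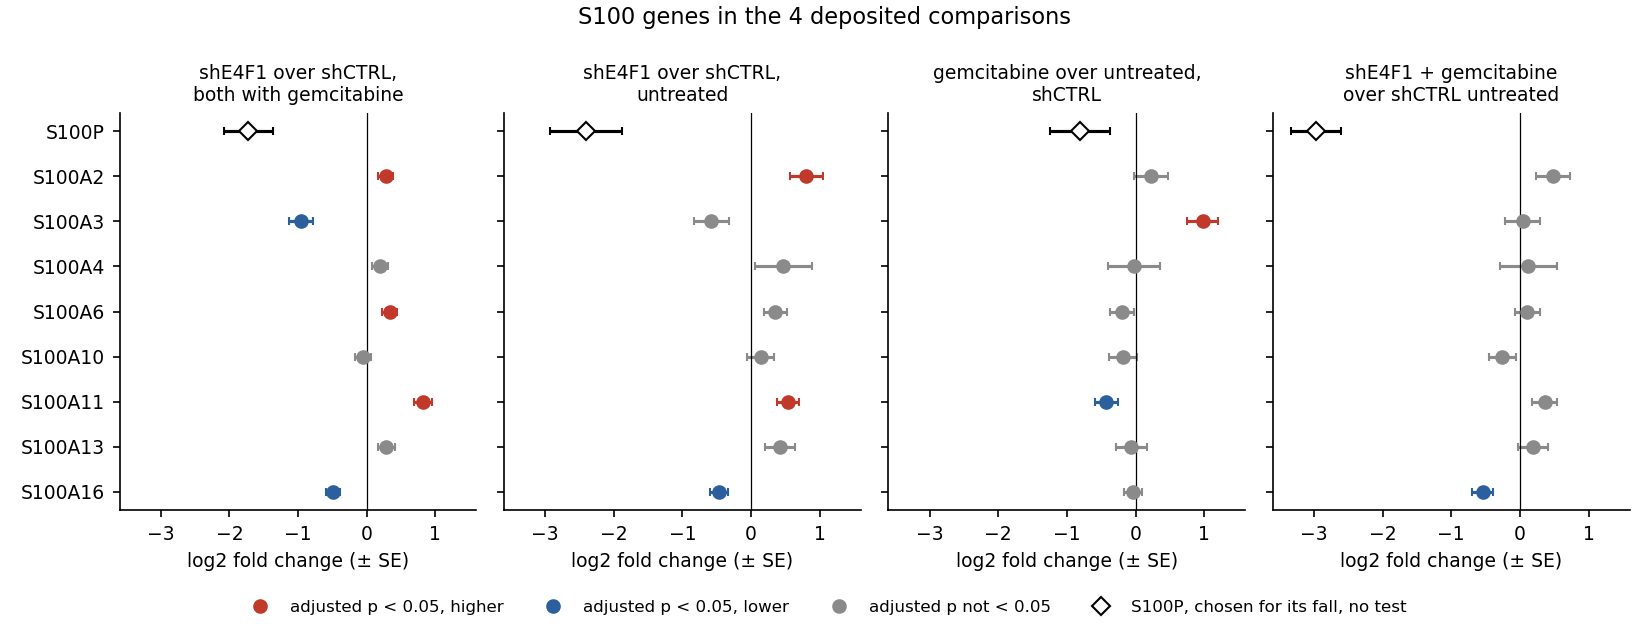
Log2 fold change (x axis) of each S100 gene (rows) in the authors' 4 deposited comparisons, 1 panel each, with bars of 1 SE; filled points carry the authors' test and open diamonds mark S100P, which was chosen for its fall and is shown without one. S100P is far left of 0 in the 3 panels with shE4F1 libraries, S100A3 is left of 0 in the first panel and right of 0 in the gemcitabine panel, and S100A16 is left of 0 wherever shE4F1 is compared with shCTRL.

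Levels were derived per group by splitting a table's mean normalized count into the means of its 2 groups with the deposited fold change, on the scale of the untreated knockdown table. Whether the deposited fold changes were pulled towards 0 in the fit is not given in the sources used here. If they were, they are not plain ratios of group means. Levels and ratios of low or variable genes such as S100P are then approximate, and so are differences between tables for such genes. A group held by several tables gets an estimate from each, and these lay within 0.1 (log2) of each other for 99.5% of 12116 genes in shE4F1 cells with gemcitabine, 99.4% in shCTRL cells with gemcitabine and 98.8% in untreated shCTRL cells. Per kilobase of exon, S100A6 had the highest level in every group (47448 normalized counts per kilobase in untreated shE4F1 cells and 37044 in untreated shCTRL cells), followed by S100A11 (18082 and 12440) and S100A10 (6745 and 6118). S100A2 came next in untreated shE4F1 cells, at 3346, ahead of S100A16 at 2149. In untreated shCTRL cells that order was turned, with S100A2 at 1903 and S100A16 at 2978. S100A4 (1253 and 885) and S100A13 (498 and 371) followed. S100A3 and S100P were the lowest, at 92.8 and 24.7 in untreated shE4F1 cells, and at 141 and 133 in untreated shCTRL cells, where the ranges of their estimates over tables overlap. S100A6 alone made up 57.5% of the members' summed normalized counts in untreated shE4F1 cells and 56.2% in untreated shCTRL cells. How far neighbours in this order differ beyond the spread of libraries was not tested.

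**Figure D2:**
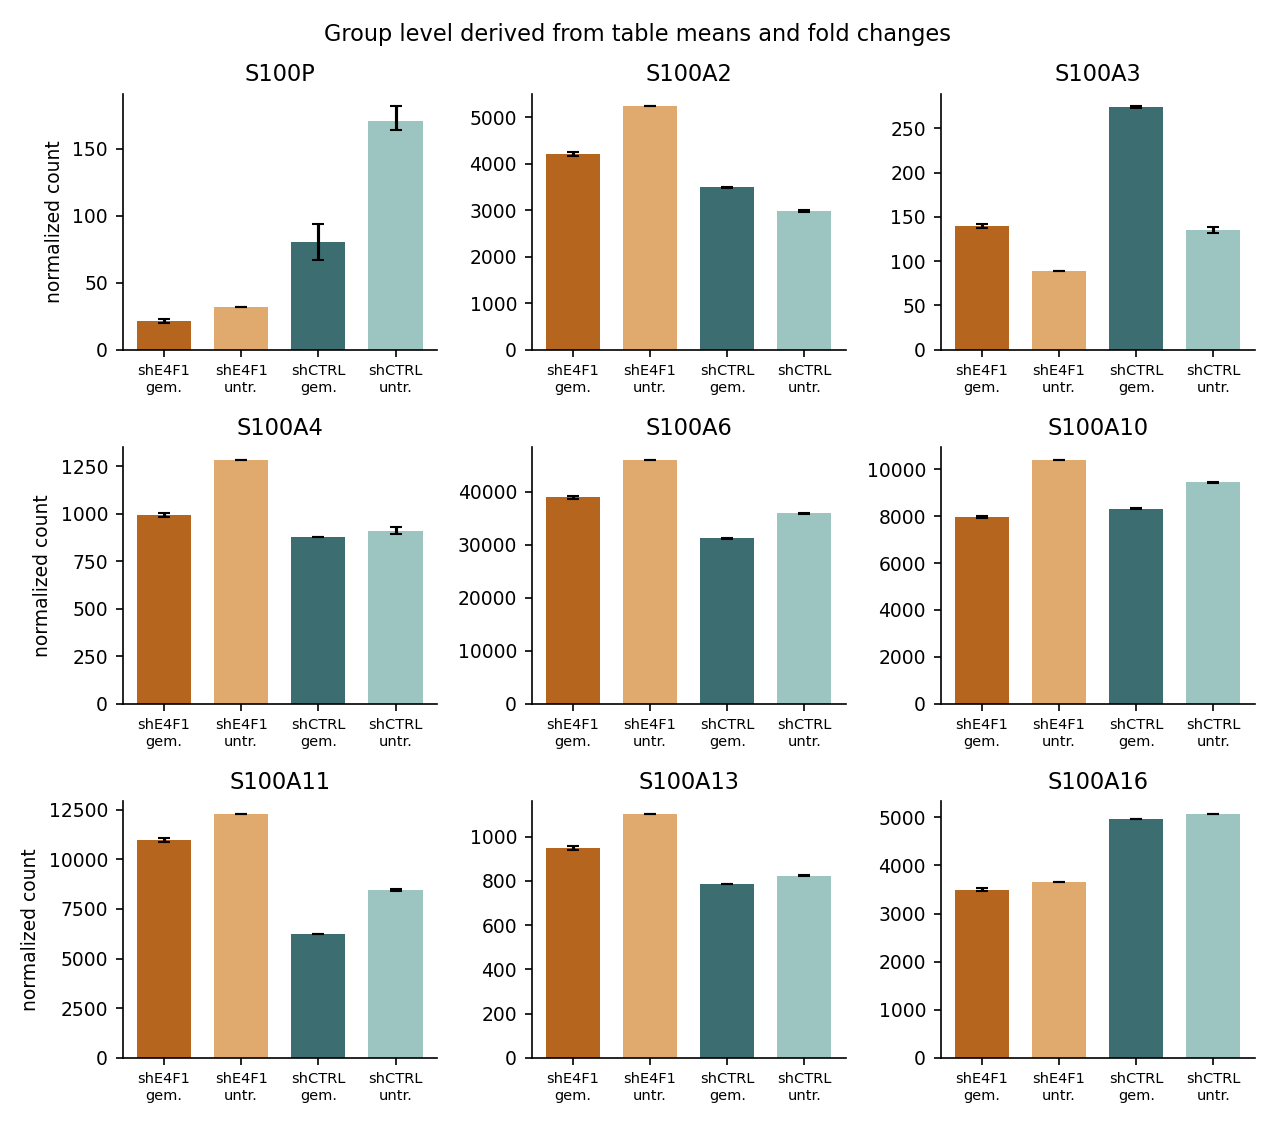
Group level (y axis, normalized count, linear from 0) of each S100 gene in the 4 groups, gem. for gemcitabine and untr. for untreated; bars are the mean of the estimates from the tables that hold the group and whiskers run from the lowest to the highest estimate, so they show no spread of libraries. S100P is at 21.7 in shE4F1 cells with gemcitabine, against 171 in untreated shCTRL cells, and S100A3 is highest in shCTRL cells with gemcitabine, at 274.

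S100P, the placental S100 protein, can be released as a ligand of RAGE and inside the cell binds ezrin. Its level was 21.7 normalized counts in shE4F1 cells with gemcitabine (20.2 and 23.3 in the estimates from 2 tables) and 31.6 in untreated shE4F1 cells. It was 80.2 in shCTRL cells with gemcitabine (66.9 to 93.4) and 171 in untreated shCTRL cells (164 to 182). Both shE4F1 groups were below both shCTRL groups, and within each hairpin the gemcitabine group was the lower. In shE4F1 cells this gemcitabine difference was -0.57 ± 0.64 (log2, SE) with the SE that counts the shared libraries 2 times. It was -0.57 ± 0.46 with their variance subtracted and -0.14 ± 0.77 from the other tables, all without a test. As described by the authors' deposited tables, with no test here, the log2 fold change of shE4F1 over shCTRL was -1.73 ± 0.36 (SE) under gemcitabine and -2.40 ± 0.53 untreated. Read as plain ratios, these are 0.302 and 0.189 of the shCTRL level. With both changes together, shE4F1 with gemcitabine over shCTRL untreated, the deposited table gives -2.97 ± 0.36, or 0.128 of the control level when read in the same way.

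That last value made S100P the gene with the fourth largest fall, at rank 4 of 21847 genes in the authors' deposited table. Just above it stood MEST (-3.39), CRIM1 (-3.38) and the interleukin receptor gene IL1RL1 (-3.02), and just below it PHC2 (-2.79), RAB39B (-2.73) and ADAM12 (-2.69). By the deposited log2 fold changes its rank was 424 of 22433 for the knockdown under gemcitabine and 46 of 21567 for the knockdown untreated. For gemcitabine over untreated in shCTRL cells the authors' deposited table has S100P at -0.81 ± 0.44. That table holds the same untreated shCTRL libraries as the comparisons in which S100P was chosen for its fall, so this value too is a description with no test. The 3 tables that involve S100P in this way do not close exactly: the deposited -2.97 stands against -2.54 for the sum of the gemcitabine effect in shCTRL cells and the knockdown effect under gemcitabine, whereas for the other 8 members the deposited value less the sum was between -0.05 and 0.02.

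The genes whose 4 deposited log2 fold changes lay closest to those of S100P, among the 12448 genes whose mean reached 50 in every table, were PHC2 (Euclidean distance 0.26), MTHFD2 (0.43), CTB-193M12.5 (0.54), SLC7A5 (0.62) and IL1RL1 (0.67). Over all 12448 genes the median distance was 4.23. S100P was chosen for its large fall, so most genes lie far from it by that choice, and the nearest are other genes with large falls. The median is therefore no measure of how unusual the likeness is. PHC2 encodes a Polycomb protein, MTHFD2 a mitochondrial enzyme of folate metabolism, and SLC7A5 the light chain of an amino acid transporter. For PHC2 the authors' deposited tables give -1.84 for the knockdown under gemcitabine, -2.43 for the knockdown untreated, -0.96 for gemcitabine in shCTRL cells and -2.79 for both changes together. The values of MTHFD2 in the deposited tables are -1.67, -2.56, -0.92 and -2.59 in the same order. The 4 tables share libraries, so likeness over them is a description of 4 groups and not of 4 separate experiments.

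Among the members that bind annexins, S100A11 moved most. S100A11 (calgizzarin) pairs with annexin A1 and takes part in repair of the plasma membrane. Its level was 10972 normalized counts in shE4F1 cells with gemcitabine and 12296 in untreated shE4F1 cells, against 6252 in shCTRL cells with gemcitabine and 8459 in untreated shCTRL cells. Both shE4F1 groups were above both shCTRL groups, and gemcitabine groups were below untreated ones. By the authors' deposited tables it rose by 0.82 ± 0.13 (log2, SE; adjusted p = 6.72e-10, DESeq2) with the knockdown under gemcitabine and by 0.54 ± 0.16 (adjusted p = 0.00358) with the knockdown untreated. Gemcitabine lowered it in shCTRL cells, at -0.43 ± 0.17 (adjusted p = 0.0427) in the deposited table. By the normal test that call is lost when fold changes are centred on their median (adjusted p = 0.103). It is also lost when taken from the other 2 tables (-0.46 ± 0.22, adjusted p = 0.165). Those 2 tables share the shE4F1 libraries with gemcitabine, which cancel in the difference, so that SE is too large. The knockdown effects under gemcitabine and untreated differed by 0.29 ± 0.20 (adjusted p = 0.540 by the normal test), and the difference did not pass.

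S100A6 (calcyclin), which binds the calcyclin-binding protein CACYBP and several annexins, was the most abundant member. It stood at 39023 normalized counts in shE4F1 cells with gemcitabine and 46072 in untreated shE4F1 cells, against 31209 in shCTRL cells with gemcitabine and 35970 in untreated shCTRL cells. Under gemcitabine it rose by 0.33 ± 0.11 with the knockdown (log2, SE; adjusted p = 0.00823, DESeq2) in the authors' deposited table. That call is lost when the effect is taken from the other 2 tables (0.31 ± 0.25, adjusted p = 0.503 by the normal test). Those 2 tables share the untreated shCTRL libraries, which cancel in the difference, so that SE is too large. Untreated, the deposited table gives a value of similar size, 0.35 ± 0.17, which did not pass (adjusted p = 0.0791) and which does pass when fold changes are centred on their median (adjusted p = 0.0453). Between gemcitabine and no treatment the knockdown effect differed by -0.02 ± 0.20 (adjusted p = 0.984 by the normal test).

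S100A10 (p11) forms a complex with annexin A2 and is held in its active shape without calcium. None of its comparisons passed in the authors' deposited tables. Its knockdown values there were -0.06 ± 0.12 (log2, SE; adjusted p = 0.766, DESeq2) under gemcitabine, with a 95% interval of -0.28 to 0.17, and 0.14 ± 0.19 (adjusted p = 0.635) untreated, with an interval of -0.24 to 0.51. Gemcitabine groups were again the lower ones, at 7948 normalized counts against 10408 untreated in shE4F1 cells and 8320 against 9440 untreated in shCTRL cells. In shE4F1 cells this gemcitabine difference was -0.39 ± 0.28 with the SE that counts the shared libraries 2 times. It was -0.39 ± 0.098 (adjusted p = 0.00106 by the normal test) with their variance subtracted, and the call rests on that subtraction.

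S100A4 (metastasin) binds non-muscle myosin heavy chain, the product of MYH9, and is named for its part in metastasis. It averaged 992 normalized counts in shE4F1 cells with gemcitabine, 1285 in untreated shE4F1 cells, 877 in shCTRL cells with gemcitabine and 907 in untreated shCTRL cells. None of its 4 deposited comparisons passed, and the adjusted p values in the authors' deposited tables ran from 0.207 to 0.976 (DESeq2). The precision behind them differed: the deposited SE was 0.12 for the knockdown under gemcitabine and 0.42 for the knockdown untreated. MYH9 itself fell by 0.74 ± 0.14 (log2, SE; adjusted p = 3.56e-06, DESeq2) with gemcitabine in the shCTRL background, by the authors' deposited table.

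S100A2 binds p53 and is expressed mainly in epithelia with a basal character. Its level was 4206 normalized counts in shE4F1 cells with gemcitabine and 5243 in untreated shE4F1 cells, against 3491 in shCTRL cells with gemcitabine and 2983 in untreated shCTRL cells. Both shE4F1 groups were above both shCTRL groups. In the authors' deposited tables it rose by 0.28 ± 0.11 (log2, SE; adjusted p = 0.0288, DESeq2) with the knockdown under gemcitabine and by 0.81 ± 0.24 (adjusted p = 0.00411) with the knockdown untreated. The call under gemcitabine is lost when the effect is taken from the other 2 tables (0.25 ± 0.35, adjusted p = 0.764 by the normal test). Those 2 tables share the untreated shCTRL libraries, which cancel in the difference, so that SE is too large. The difference between the 2 effects was -0.53 ± 0.27 (adjusted p = 0.301 by the normal test) and did not pass. TP63, a p53 family gene of basal epithelium, had a called difference of -1.09 ± 0.26 (adjusted p = 0.00182 by the normal test), with -0.47 ± 0.12 under gemcitabine and 0.61 ± 0.23 untreated in the deposited tables.

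S100A13 takes part in the release of fibroblast growth factor FGF1 from cells that secrete it without a signal peptide, in a complex that also holds the synaptotagmin SYT1. S100A13 did not pass in any of the authors' deposited tables. Its knockdown values there were 0.28 ± 0.13 (log2, SE; adjusted p = 0.0556, DESeq2) under gemcitabine and 0.42 ± 0.22 (adjusted p = 0.118) untreated. The first passes when only genes with a mean of 50 or more are adjusted together (adjusted p = 0.0387). In the annotation 24.2% of S100A13 exonic bases are shared on the same strand with the transcript gene AL162258.1 and 10.6% on the opposite strand with S100A1, and the strand setting of the counting is not given in the sources used here. The partners moved far more. SYT1 fell by 3.34 ± 0.15 (log2, SE; adjusted p = 3.98e-107, DESeq2) with the knockdown under gemcitabine in the authors' deposited table, and by 2.88 ± 0.29 (adjusted p = 6.96e-22) untreated. FGF1 fell by 1.59 ± 0.33 (adjusted p = 1.09e-05) with the knockdown under gemcitabine and rose by 1.84 ± 0.34 (adjusted p = 1.39e-06) with gemcitabine in shCTRL cells, both in the deposited tables. Its interaction of -1.69 ± 0.53 (adjusted p = 0.0334 by the normal test) was the one called among the 26 listed S100 partners and receptors. Over all genes 5.43% were called for the interaction, and 7.68% at a mean of 50 or more. The mean normalized count of FGF1 was 23.9 in the untreated knockdown comparison, against 81.1 under gemcitabine.

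S100A3 is a cysteine-rich member that binds zinc and is known from the hair cuticle. It stood at 140 normalized counts in shE4F1 cells with gemcitabine and 88.7 in untreated shE4F1 cells, against 274 in shCTRL cells with gemcitabine and 135 in untreated shCTRL cells. Gemcitabine groups were the higher ones under both hairpins, and the shE4F1 group was the lower one under both treatments, so that shE4F1 cells with gemcitabine ended near untreated shCTRL cells. By the authors' deposited tables this gene rose by 0.98 ± 0.23 (log2, SE; adjusted p = 0.000181, DESeq2) with gemcitabine in shCTRL cells and fell by 0.96 ± 0.18 (adjusted p = 7.75e-07) with the knockdown under gemcitabine. Its value of -0.58 ± 0.26 for the knockdown untreated did not pass (adjusted p = 0.0675), and the deposited table of both changes together gives 0.04 ± 0.25 (adjusted p = 0.930). Its gemcitabine difference in shE4F1 cells was 0.62 ± 0.36 (adjusted p = 0.961 by the normal test). With the variance of the shared libraries subtracted it was 0.62 ± 0.22 (adjusted p = 0.0364), a call that rests on that subtraction. The interaction of -0.38 ± 0.32 (adjusted p = 0.632) did not pass. S100A3 lies within the annotated span of S100A4 on the same strand, and the exons of the pair share 0 bases.

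S100A16 is a widely expressed member with a weak calcium site. Of the 8 members other than S100P, it was the one called in all 3 deposited comparisons of shE4F1 with shCTRL libraries. Its level was 3499 normalized counts in shE4F1 cells with gemcitabine and 3655 in untreated shE4F1 cells, against 4964 in shCTRL cells with gemcitabine and 5066 in untreated shCTRL cells. In the authors' deposited tables it fell by 0.49 ± 0.10 (log2, SE; adjusted p = 8.87e-06, DESeq2) with the knockdown under gemcitabine and by 0.47 ± 0.14 (adjusted p = 0.00234) with the knockdown untreated. Taken from the other 2 tables the value under gemcitabine is -0.51 ± 0.20 and no longer passes (adjusted p = 0.0598 by the normal test). Those 2 tables share the untreated shCTRL libraries, which cancel in the difference, so that SE is too large. The 2 effects differed by -0.02 ± 0.17 (adjusted p = 0.975 by the normal test). With gemcitabine in shCTRL cells the deposited table gives -0.03 ± 0.13 (adjusted p = 0.893), with a 95% interval of -0.29 to 0.22.

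**Figure D3:**
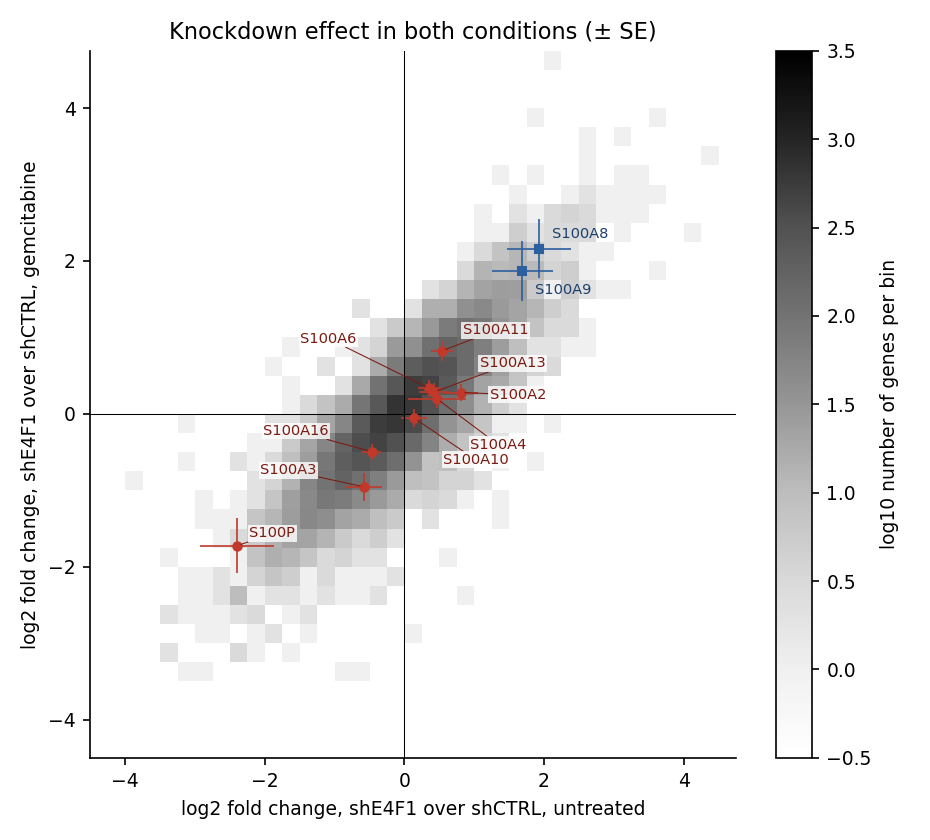
Log2 fold change of shE4F1 over shCTRL under gemcitabine (y axis) and untreated (x axis) for the S100 genes (red circles), S100A8 and S100A9 (blue squares) and all genes with a mean of 50 or more (grey bins, log10 number of genes), with bars of 1 SE. S100P (-1.73 under gemcitabine and -2.40 untreated) is at the lower left of the cloud, S100A8 (2.16 and 1.93 in the same order) and S100A9 (1.87 and 1.69) are at the upper right, and the other 8 S100 genes lie within its dense middle, from the authors' deposited tables, which share no library here.

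The precision of the members was uneven. In the 3 deposited tables that hold the untreated shCTRL libraries, the SE of S100A4 was 3.32 times its SE in the table that does not, the knockdown under gemcitabine. The same ratio was 1.36 for the median of 12448 genes with a mean of 50 or more, with 1.08 and 1.75 at the 5th and 95th percentiles, so S100A4 stood at percentile 99.9. S100A2 had a ratio of 2.26 (percentile 99.4), S100A13 of 1.77, S100A10 of 1.71, S100A6 of 1.56, S100A3 of 1.37, and S100A11 and S100A16 of 1.35 each. For S100P, whose mean differs between tables, the SE was set against genes within 2-fold of its mean. It was 1.18 times their median for the knockdown under gemcitabine, 1.99 times for the knockdown untreated, 1.89 times for gemcitabine in shCTRL cells and 1.39 times for both changes together. Which libraries of those tables spread most was not tested, since values per library were not used.

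**Figure D4:**
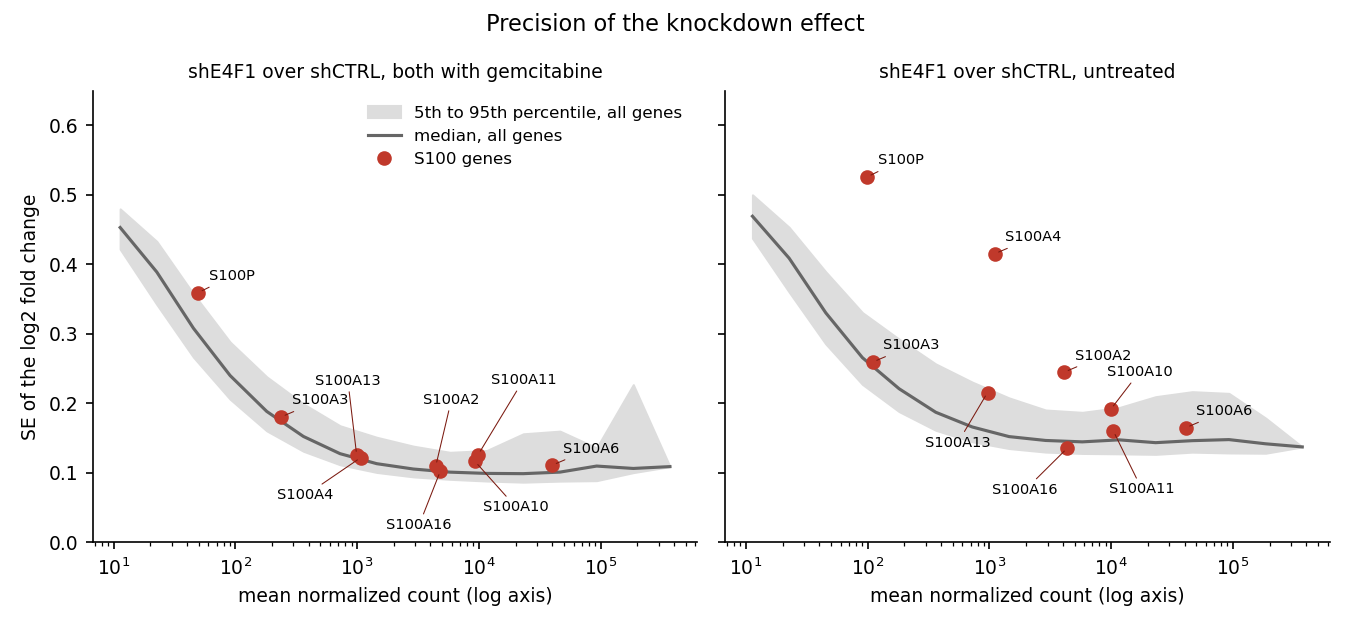
SE of the deposited log2 fold change (y axis) against mean normalized count (x axis, log scale) for the knockdown under gemcitabine (left) and untreated (right), with the median and the 5th to 95th percentiles of all genes in grey. Under gemcitabine the S100 genes lie near the grey band, and untreated S100P (0.53), S100A4 (0.42) and S100A2 (0.24) lie above it.

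Of 11 other S100 genes listed, 5 were in the deposited tables of the knockdown, and the inflammatory pair S100A8 and S100A9, which together form calprotectin, rose. Levels of S100A8 were 671 normalized counts in shE4F1 cells with gemcitabine and 1139 in untreated shE4F1 cells, against 144 in shCTRL cells with gemcitabine and 252 in untreated shCTRL cells, where the estimates from 3 tables ran from 194 to 298. The authors' deposited tables give S100A8 a rise of 2.16 ± 0.39 (log2, SE; adjusted p = 1.71e-07, DESeq2) with the knockdown under gemcitabine and 1.93 ± 0.46 (adjusted p = 0.000157) untreated. S100A9 rose by 1.87 ± 0.39 (adjusted p = 1.05e-05) and 1.69 ± 0.44 (adjusted p = 0.000618) in the same deposited tables. S100A12, at a mean of 6.70 normalized counts, rose by 1.79 ± 0.53 (adjusted p = 0.00319) untreated in the deposited table, and its value of 0.96 ± 0.51 under gemcitabine did not pass (adjusted p = 0.128). S100A1 and S100A14 had means under 10 and were not called in the deposited tables. The gene of the S100A9 receptor basigin, BSG, fell by 1.77 ± 0.13 (adjusted p = 1.05e-37) with the knockdown under gemcitabine and fell by 1.83 ± 0.18 (adjusted p = 2.51e-23) untreated in the authors' deposited tables.

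S100A8 and S100A9 are also markers of myeloid cells. On the list of 8 blood cell markers that holds them, the authors' deposited table of the knockdown under gemcitabine called 2 of 6 higher, which are these 2 genes, and 1 lower, the pan-leukocyte gene PTPRC, at 0.125 of the shCTRL level (adjusted p = 5.00e-27, DESeq2). Untreated the deposited table called the same 2 of 5 higher and PTPRC lower, at 0.215 of the shCTRL level (adjusted p = 4.96e-07). Over all genes the shares called were 41% under gemcitabine and 36.7% untreated. At a mean of 50 or more they were 59.3% and 48.7%, so both counts of markers are near the background. Mean normalized counts over the tables were 4.98 to 12.7 for CD14, 20.9 to 26.9 for LYZ and 19.8 to 46.9 for ITGAM, against 189 to 719 for S100A8. The part of other cells in the S100A8 and S100A9 values was not tested.

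Around the members, the listed partners and other calcium sensors moved in both directions. Of 26 S100 binding partners and receptors, the authors' deposited tables called 8 higher and 11 lower with the knockdown under gemcitabine, 7 higher and 8 lower with the knockdown untreated, and 2 higher and 8 lower with gemcitabine in shCTRL cells. Over all genes the shares called were 41%, 36.7% and 28% in the same order, and at a mean of 50 or more 59.3%, 48.7% and 36%. The tropomyosin gene TPM1, which encodes a partner of S100A2 and S100A6, rose by 1.18 ± 0.10 (log2, SE; adjusted p = 1.90e-32, DESeq2) under gemcitabine and by 1.06 ± 0.14 (adjusted p = 1.62e-12) untreated with the knockdown in the deposited tables. AHNAK, a scaffold of the S100A10 and annexin A2 complex, rose by 0.79 ± 0.10 (adjusted p = 5.47e-14) under gemcitabine and by 0.86 ± 0.14 (adjusted p = 1.51e-08) untreated with the knockdown in the deposited tables. It fell by 0.59 ± 0.15 (adjusted p = 0.000502) with gemcitabine in shCTRL cells. With both changes together its 0.17 ± 0.16 was not called (adjusted p = 0.451). AGER, the gene of the S100P receptor RAGE, fell by 0.71 ± 0.28 (adjusted p = 0.0415) with gemcitabine in shCTRL cells in the deposited table, which holds no shE4F1 library. Of 11 annexins tested, the deposited tables called 3 higher and 4 lower with the knockdown under gemcitabine and 2 higher and 2 lower untreated, beside the same shares of 41% and 36.7% over all genes, or 59.3% and 48.7% at a mean of 50 or more.

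ANXA3 fell by 2.91 ± 0.34 (log2, SE; adjusted p = 7.61e-17, DESeq2) with the knockdown under gemcitabine and by 1.29 ± 0.44 (adjusted p = 0.0132) untreated, and ANXA6 rose by 0.74 ± 0.10 (adjusted p = 1.43e-13) and 0.76 ± 0.22 (adjusted p = 0.00313), all in the authors' deposited tables. Of the other EF-hand calcium sensors, 12 of 28 were called higher and 4 lower with the knockdown under gemcitabine, and 6 of 27 higher and 5 lower untreated, in the deposited tables, counts near the 59.3% and 48.7% called over all genes whose mean reached 50. The calmodulin gene CALM3 rose by 1.12 ± 0.10 (adjusted p = 3.19e-26) under gemcitabine and by 0.90 ± 0.18 (adjusted p = 8.72e-06) untreated in those tables. CALM2, a more abundant calmodulin gene, fell by 0.24 ± 0.10 (adjusted p = 0.0338) under gemcitabine and by 0.32 ± 0.13 (adjusted p = 0.0413) untreated in the same deposited tables, and it fell by 0.81 ± 0.15 (adjusted p = 4.35e-07) with both changes together. LETM1, the gene of a mitochondrial ion exchange protein, fell by 1.06 ± 0.10 (adjusted p = 1.25e-22) under gemcitabine and by 0.90 ± 0.14 (adjusted p = 7.31e-10) untreated in the authors' deposited tables. The median log2 fold changes of the partner, annexin and EF-hand lists were -0.13, 0.19 and 0.27 under gemcitabine and -0.07, 0.25 and 0.13 untreated, against 0.00 over all genes.

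Neighbouring genes on chromosome 1 did not share 1 direction with the S100A genes. Of the listed genes beside the cluster, the authors' deposited tables called 4 of 15 higher and 6 lower with the knockdown under gemcitabine, and 1 of 14 higher and 6 lower untreated, near the 59.3% and 48.7% called over all genes whose mean reached 50. TPM3, a second tropomyosin gene, fell by 1.64 ± 0.10 (log2, SE; adjusted p = 2.12e-56, DESeq2) under gemcitabine and by 1.26 ± 0.16 (adjusted p = 4.61e-14) untreated, and CHTOP fell by 0.54 ± 0.09 (adjusted p = 6.38e-08) and 0.78 ± 0.14 (adjusted p = 3.46e-07), in those deposited tables. INTS3 rose by 0.84 ± 0.10 (adjusted p = 4.15e-15) with the knockdown under gemcitabine in the authors' deposited table. Within the cluster, S100A3 and S100A16, which were called lower under gemcitabine, flank S100A2, which was called higher.

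**Figure D5:**
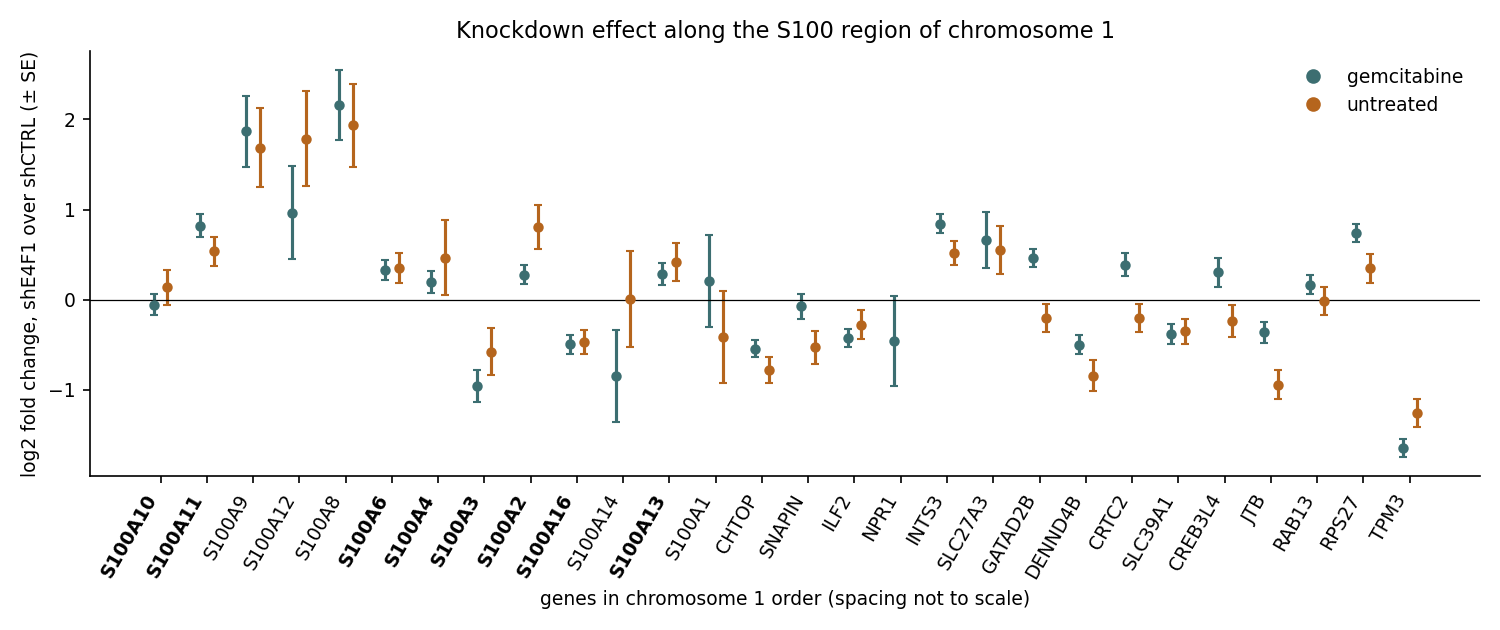
Log2 fold change of shE4F1 over shCTRL (y axis, bars of 1 SE) for the S100 genes and the listed genes beside them, in the order of their positions on chromosome 1 (x axis, spacing not to scale; the 8 members on this chromosome in bold), under gemcitabine and untreated, from the authors' deposited tables. Values change sign between neighbours, as from S100A3 to S100A2 and from S100A2 to S100A16, and S100A8, S100A9 and S100A12 have the highest values.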

How the data were processed

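RNA of 12 SUM159 libraries in 4 groups of 3, labelled as total RNA, was read in single-end reads of 50 bases from stranded mRNA libraries, per the labels' protocols. Per the submitters' processing notes the build was GRCh38.p7 and the tools included TopHat2 2.1.1 with Bowtie2 2.2.9, HTSeq 0.9.0, and DESeq2 1.14.1 under R 3.4.0. The sources used here give no annotation, filter or model formula.

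The authors' deposited DESeq2 tables give for each gene the mean normalized count (a signal), a log2 fold change, its SE, a Wald score, and a p-value with its adjusted p-value, per the file headers. The SE and the mean give the precision, and the depth per library is unknown here. None of the 12 columns of the deposited count table was used, since no label matches their names.

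Group means were derived from the deposited means and fold changes. The gemcitabine effect in shE4F1 cells and the interaction are differences of log2 fold changes with summed variances. They were put to a normal test, two-sided, with Benjamini-Hochberg adjustment over all genes (numpy 2.4.6, pandas 2.3.3, scipy 1.17.1, Python 3.11.15). A run on simulated data drew independent normal errors with the deposited SE, so it checked the calculation alone. Shared libraries were not simulated, so it cannot show how the test behaves where tables share them. A gene was called at an adjusted p under 0.05. All 9 members are described. Of the other lists, named genes are among the 4 called with the largest change per comparison, and the 5 nearest to S100P are given. The members and lists were chosen with earlier results of these data known. Alternatives were adjustment over every gene, a mean minimum of 50, centring on the median, other tables and another SE, from sums and differences of deposited variances.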

Additional observations from a re-analysis of the deposited data

How the results depend on the processing

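Over the alternatives run, 156 recomputed values of the 8 members other than S100P kept their direction and their side of the threshold, 5 lost a call, 5 gained one and 2 changed sign. Adjustment over every gene, the mean minimum and the other SE leave the fold change as it is. Direction could therefore change only with centring and with the other tables. Of the S100P values, given without a test, 2 moved by more than 1 SE. Taken from the other 2 tables, 2 of 8 members were called for the knockdown under gemcitabine, and over all genes 3641 were called, against 9202. Lost by the normal test were S100A2 (adjusted p = 0.764), S100A6 (0.503) and S100A16 (0.0598). This route adds the variance of the untreated shCTRL libraries, although they cancel, so its SE is too large. For gemcitabine in shCTRL cells 1 of 8 members was called with centring on the median and 1 from the other tables, and over all genes 3028 by the other tables, against 5599. The SE from the other tables is again too large, since both hold the shE4F1 libraries with gemcitabine. S100A4 (0.040) and S100A16 (0.030) changed sign for gemcitabine in shCTRL cells with centring, neither called. For gemcitabine in shE4F1 cells 3 of 8 members were called with the variance of the shared libraries subtracted. Over all genes 2931 were called in this way, against 234 as first computed and 142 from the other tables. S100P moved to -2.16 for the knockdown under gemcitabine and to -2.54 for both changes together when taken from the other tables. Of the interaction calls over all genes 51.6% were higher, against 35.3% with centring. Except where the added variance accounts for it, the cause was not tested.

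No paired analysis was possible because the count columns carry no label that ties them to a library, and for the same reason leaving out each replicate, a replicate block and count tests with edgeR or DESeq2 were not run. Groups of 3 libraries and levels under 100 normalized counts in untreated shE4F1 cells limit what can be said of S100P and S100A3.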
